A study of Rattus norvegicus with 18 samples.

Results

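The treatment examined was the exposure of H9C2 cells to 50 µmol/L PE for 48 h followed by 10 electric pulses (group P_ES10), set against cells without treatment (group NC). It covers 6 of the 18 libraries of the series, 3 P_ES10 and 3 NC, chosen by the treatment given in the sample labels. Beside it stand group P, with the same PE exposure and no pulses, and group ES10, with 10 pulses and no PE, each of 3 libraries. The pulses lasted 100 µs each at 1500 V/cm. H9C2 is a single cell line of rat embryonic heart origin that grows as myoblasts, and every group consisted of this line. The sources used here give neither the meaning of PE nor the delay between pulses and harvest, nor whether NC cells received a vehicle or sham handling. The labels do not tie replicates to separate cultures, and a p-value here therefore reflects variation among libraries that could be technical. The series asks what microsecond pulsed fields do to the viability of heart muscle cells and to their mitochondria, and this contrast gives the net state of cells that met both agents.

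Strong short electric pulses open pores in the plasma membrane, through which ions and small molecules leak until the membrane reseals. Cells answer such injury with calcium-driven membrane repair, with the rapid transcription of immediate early genes and with chaperones that hold damaged proteins. Heart cells depend on oxidative phosphorylation, and a small set of its subunits is encoded by the mitochondrial genome and transcribed inside the organelle.

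Each library of the 4 groups held 14004929 to 16049853 reads on genes. Levels are the deposited FPKM, fragments scaled by gene length and by a library term. This term did not follow the reads on genes. It was 24939849 for P replicate 3, with 14004929 reads, and 22695063 for NC replicate 1, with 14017831 reads. Nuclear reads, those on genes outside the mitochondrial genome, were 13221072 and 12059244 in these libraries, in the same order as the term. Differences are on the log2(FPKM + 1) scale ± standard error from limma. This scale understates changes of low genes. A gene entered the test when 3 or more of the 12 libraries had it at an FPKM of 1 or above, and calls are those with an adjusted p under 0.05. With the deposited scaling the median log2 difference of all tested genes between P_ES10 and NC was 0.01. It was 0.03 after scaling to total reads, -0.01 after quantile normalization and -0.06 after scaling to nuclear reads. This median therefore depends on the scaling. H9C2 libraries had few heart muscle transcripts. Of 14 cardiomyocyte markers, 4 reached the filter, the summed level of all 14 was 15.3 to 16.6 FPKM in P_ES10 and 17.4 to 19.0 FPKM in NC, and Tbx5 had no reads. Of 12 skeletal myoblast markers, 11 were in the file and 4 passed, with sums of 140.0 to 144.7 FPKM in P_ES10 and 142.8 to 143.2 FPKM in NC. Members moved in opposite directions within these sums. Myod1 was at 55.9 to 56.9 FPKM in P_ES10 and 31.9 to 32.2 FPKM in NC. Cdh15 was at 57.9 to 62.4 FPKM in P_ES10 and 84.4 to 86.8 FPKM in NC. None of 7 endothelial markers in the file passed, with sums of 0.832 to 1.09 FPKM in P_ES10 and 0.709 to 1.02 FPKM in NC. Of 8 macrophage markers 3 passed, with sums of 6.79 to 7.64 FPKM in P_ES10 and 7.31 to 8.41 FPKM in NC, while the defining genes Ptprc and Adgre1 had no reads. Of 8 fibroblast markers 3 passed, with sums of 1575 to 1657 FPKM in P_ES10 and 1543 to 1596 FPKM in NC. Most of these sums was Col1a1, at 1453 to 1530 FPKM in P_ES10 and 1427 to 1485 FPKM in NC. Next came Thy1, at 121.0 to 124.7 FPKM in P_ES10 and 109.9 to 115.7 FPKM in NC. Pdgfra reached no more than 0.0176 FPKM in P_ES10 and 0.0676 FPKM in NC. Tcf21 was at 0 in P_ES10 and at no more than 0.0617 FPKM in NC.

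Of 11549 genes tested, 3352 (29.0%) differed between P_ES10 and NC, 1957 (16.9%) higher and 1395 (12.1%) lower in P_ES10. Changes were mostly small, since 63 of the higher and 25 of the lower genes reached 2-fold on the log2(FPKM + 1) scale. The counts of list members against NC given below stand beside these shares of 16.9% higher and 12.1% lower. The higher share of the calls was 58.4% with the deposited scaling. It was 47.9% after quantile normalization (1641 higher, 1783 lower) and 34.0% after scaling to nuclear reads (1292 higher, 2505 lower). Without regard to the test, the 3 P_ES10 libraries lay wholly on one side of the 3 NC libraries for 5023 genes (43.5%). In the set of all 18 libraries fitted together, 1393 genes were called, 902 higher and 491 lower.

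Mitochondrially encoded mRNAs fell together and made up 8 of the 25 genes that were lower by 2-fold or more. Mitochondrial tRNA genes were also among the 25. Mitochondrial genes took 6.46 ± 0.377% of reads in P_ES10 libraries, against 5.48 ± 0.104% in P, 9.44 ± 0.319% in ES10 and 12.9 ± 1.21% in NC (SD, n = 3 each). The difference between P_ES10 and NC of -6.46 percentage points had an exact two-sided permutation p of 0.1, the smallest that 3 against 3 can give. As a share of summed FPKM the difference was -10.7 percentage points. In bulk RNA of this single line, fewer cells in a given state and less RNA per cell cannot be told apart. A share of reads also cannot separate less mitochondrial RNA from more RNA of nuclear genes.

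All 13 mRNAs of the mitochondrial genome were lower in P_ES10, where 12.1% of all tested genes were, at 0.354 to 0.586 of their NC level, with a median log2 difference of -1.06 against 0.01 over all tested genes. Mt-atp8, a small subunit of ATP synthase, fell most of the 13, at 65.6, 73.2 and 60.03 FPKM in P_ES10, against 45.9, 67.2 and 57.8 in P, 119, 104 and 111 in ES10 and 205, 188 and 169 in NC. P_ES10 and P libraries overlapped and both lay wholly below ES10 and NC. Its log2 difference from NC was -1.48 ± 0.12 (limma, adjusted p = 1.02e-05). Mt-nd5, a core subunit of complex I, stood at 536, 501 and 540.4 FPKM in P_ES10, against 516, 535 and 519 in P, 879.8, 799 and 832 in ES10 and 1371, 1352 and 1186 in NC. The P_ES10 and P libraries again overlapped, and the difference from NC was -1.31 ± 0.06 (adjusted p = 9.56e-08). Mt-co1, the catalytic subunit of cytochrome oxidase and the most abundant of these mRNAs, had 8777, 7810.1 and 8497 FPKM in P_ES10, against 6791, 6927 and 7076 in P, 13197, 12418 and 12489 in ES10 and 19252, 17842 and 15366 in NC. The 4 groups did not overlap in Mt-co1, with P lowest, P_ES10 next, then ES10 and NC. Mt-cytb of complex III had a difference of -1.10 ± 0.07 (adjusted p = 9.40e-07), and Mt-nd3 had the smallest of the 13, at -0.76 ± 0.09 (adjusted p = 7.96e-05). After quantile normalization 9 of the 13 were called lower and the difference of Mt-atp6 turned to 0.017. This normalization gives genes of equal rank the same value in every library. It therefore removes the difference of any gene that keeps its rank, and cannot test the most abundant mRNAs. Mt-atp8 overlaps Mt-atp6, Mt-nd4l overlaps Mt-nd4, and Mt-nd5 overlaps Mt-nd6 on the opposite strand, so reads at the shared ends cannot be assigned with certainty. Of the 2 mitochondrial rRNA genes, which poly(A) capture measures poorly, one had a log2 difference of -0.54 (adjusted p = 1.61e-04) and the other -0.03. Of 22 mitochondrial tRNA genes 16 were tested, many with few reads, and 6 were lower and 0 higher. The lowest of them differed by -1.72.

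The joint treatment lay between the single treatments on this measure. The medians of the 13 log2 differences from the same NC libraries were -1.06 in P_ES10, -1.35 in P and -0.46 in ES10, with 13, 13 and 12 of the 13 called lower, where 12.1%, 15.1% and 8.75% of all tested genes were. In either direction, 31.1% of tested genes differed from NC in P and 25.1% in ES10. Against P, where 23.0% of genes were higher and 21.1% lower, 9 of the 13 were higher in P_ES10 and 0 lower (median 0.32). Against ES10, all 13 were lower in P_ES10 (median -0.61), where 6.68% of tested genes were. Of 44 tested nuclear respiratory chain subunits, Uqcrh of complex III was higher (0.28 ± 0.06, adjusted p = 0.00550) and Ndufs7 of complex I lower (-0.24 ± 0.06, adjusted p = 0.0139), with a median of 0.01. After quantile normalization 1 was higher and 5 lower, and after scaling to nuclear reads 1 was higher and 7 lower (median -0.07). The calls of Uqcrh and Ndufs7 were lost in the 18-library fit (adjusted p of 0.0742 and 0.301), and that of Ndufs7 without NC replicate 3 (adjusted p = 0.0514). Among 16 genes of mitochondrial biogenesis and dynamics 3 were lower and 0 higher. These were Bnip3 (-0.40 ± 0.07) and Pink1 (-0.30 ± 0.07), which mark mitochondria for removal, and the nuclear receptor Esrra (-0.24 ± 0.06).

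**Figure D1:**
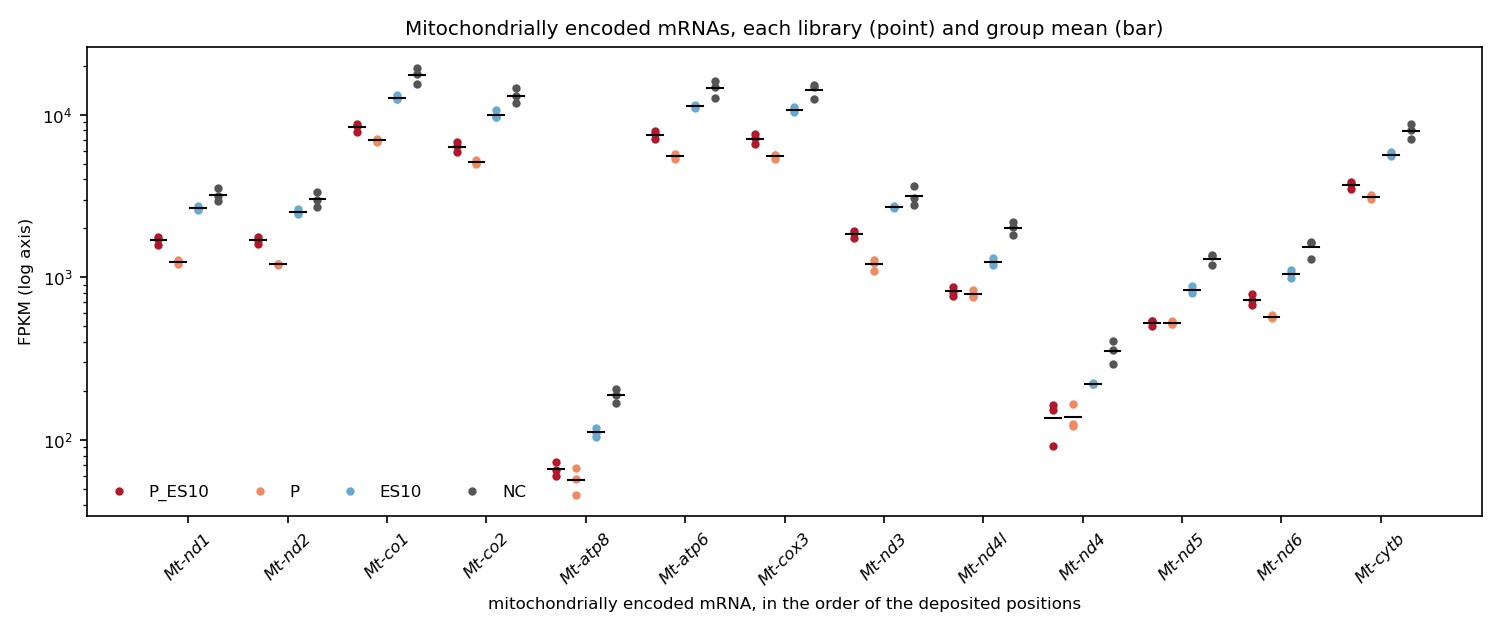
FPKM (log axis) of the 13 mitochondrially encoded mRNAs in each P_ES10, P, ES10 and NC library (points) with group means (bars). Every P_ES10 library lies below every NC library for all 13, at 0.354 to 0.586 of the NC mean.

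Trim72 showed the largest increase of all named genes. It encodes MG53, a muscle protein that moves vesicles to plasma membrane wounds (ENSRNOG00000022099, chromosome 1, 199449973 to 199457895, plus strand, build Rnor 6.0). Its level was 10.03, 9.46 and 8.07 FPKM in P_ES10, against 1.28, 1.02 and 1.26 in P, 3.14, 3.80 and 4.33 in ES10 and 1.11, 1.28 and 0.944 in NC. All 3 P_ES10 libraries exceeded all libraries of the other groups, ES10 lay between, and P and NC overlapped. The mean was 8.29-fold that of NC, a log2 difference of 2.27 ± 0.11 (limma, adjusted p = 1.80e-07). The difference was 0.05 ± 0.11 in P (adjusted p = 0.757) and 1.17 ± 0.11 in ES10 (adjusted p = 2.71e-05).

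Of 23 tested membrane repair genes 11 were higher and 1 lower in P_ES10, against backgrounds of 16.9% and 12.1%. After Trim72 came Myadm, a protein of membrane rafts, at 169, 169 and 165 FPKM in P_ES10, against 56.2, 53.7 and 54.0 in P, 157, 154 and 144 in ES10 and 66.7, 61.2 and 63.9 in NC, with P_ES10 and ES10 libraries both above every NC library. Its difference was 1.38 ± 0.04 (adjusted p = 6.44e-09). Ahnak, a large scaffold protein beneath the plasma membrane, rose by 0.62 ± 0.04 (adjusted p = 9.61e-07), and the calcium-binding annexin Anxa1 by 0.47 ± 0.03 (adjusted p = 1.45e-06). Anxa7 was the lower member (-0.17 ± 0.04). The median over the list was 0.06, and it was -0.01 after quantile normalization (7 higher, 5 lower) and -0.02 after scaling to nuclear reads (6 higher, 7 lower), so the sign of the list's median depends on the scaling.

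The other genes at the top of the ranking belonged to several functions. Serpinb2, an inhibitor of urokinase, had 6.81, 7.90 and 8.73 FPKM in P_ES10, against 1.89, 1.29 and 1.94 in P, 4.62, 5.13 and 4.71 in ES10 and 2.24, 1.78 and 1.75 in NC (1.59 ± 0.11, adjusted p = 2.57e-06). The ES10 libraries lay between P_ES10 and the overlapping P and NC libraries. Rnd1, a small GTPase that loosens the actin cytoskeleton, rose by 1.34 ± 0.07, and Pspn, which encodes the neurotrophic factor persephin, by 1.39 ± 0.10. Lppr3 rose by 1.55 ± 0.10, but it overlaps Hmha1 on the opposite strand, and Ctrb1, the gene of a digestive protease, rose by 1.45 ± 0.07.

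Among nuclear genes the largest named decrease was that of Bmf, which encodes a BH3-only protein that binds BCL2 and promotes apoptosis. Bmf had 1.71, 2.13 and 2.77 FPKM in P_ES10, against 4.81, 4.91 and 4.29 in P, 3.62, 4.33 and 4.18 in ES10 and 5.86, 5.99 and 6.71 in NC. P_ES10 libraries lay below all other libraries, and the difference from NC was -1.18 ± 0.11 (adjusted p = 2.18e-05). Nrep, a gene linked to nerve regeneration, had 10.6, 12.7 and 12.5 FPKM in P_ES10, against 30.6, 34.3 and 29.4 in P, 16.0, 10.3 and 13.5 in ES10 and 27.6, 24.5 and 25.5 in NC (-1.05 ± 0.13, adjusted p = 1.17e-04), with P_ES10 overlapping ES10. Slc6a9, the glycine transporter GLYT1, fell to 5.56, 6.21 and 5.93 FPKM in P_ES10, against 9.74, 8.66 and 9.51 in P, 9.90, 10.3 and 11.004 in ES10 and 13.4, 12.01 and 13.5 in NC (-1.02 ± 0.06, adjusted p = 8.90e-07), and it overlaps Ccdc24 on the opposite strand. P_ES10 was the lowest group for Slc6a9 and NC the highest. The receptor gene Notch3, expressed by vascular mural cells, had 1.19, 1.08 and 1.16 FPKM in P_ES10, against 3.15, 2.93 and 2.55 in P, 1.64, 1.89 and 1.77 in ES10 and 3.43, 3.33 and 3.23 in NC (-1.01 ± 0.07, adjusted p = 2.83e-06).

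**Figure D2:**
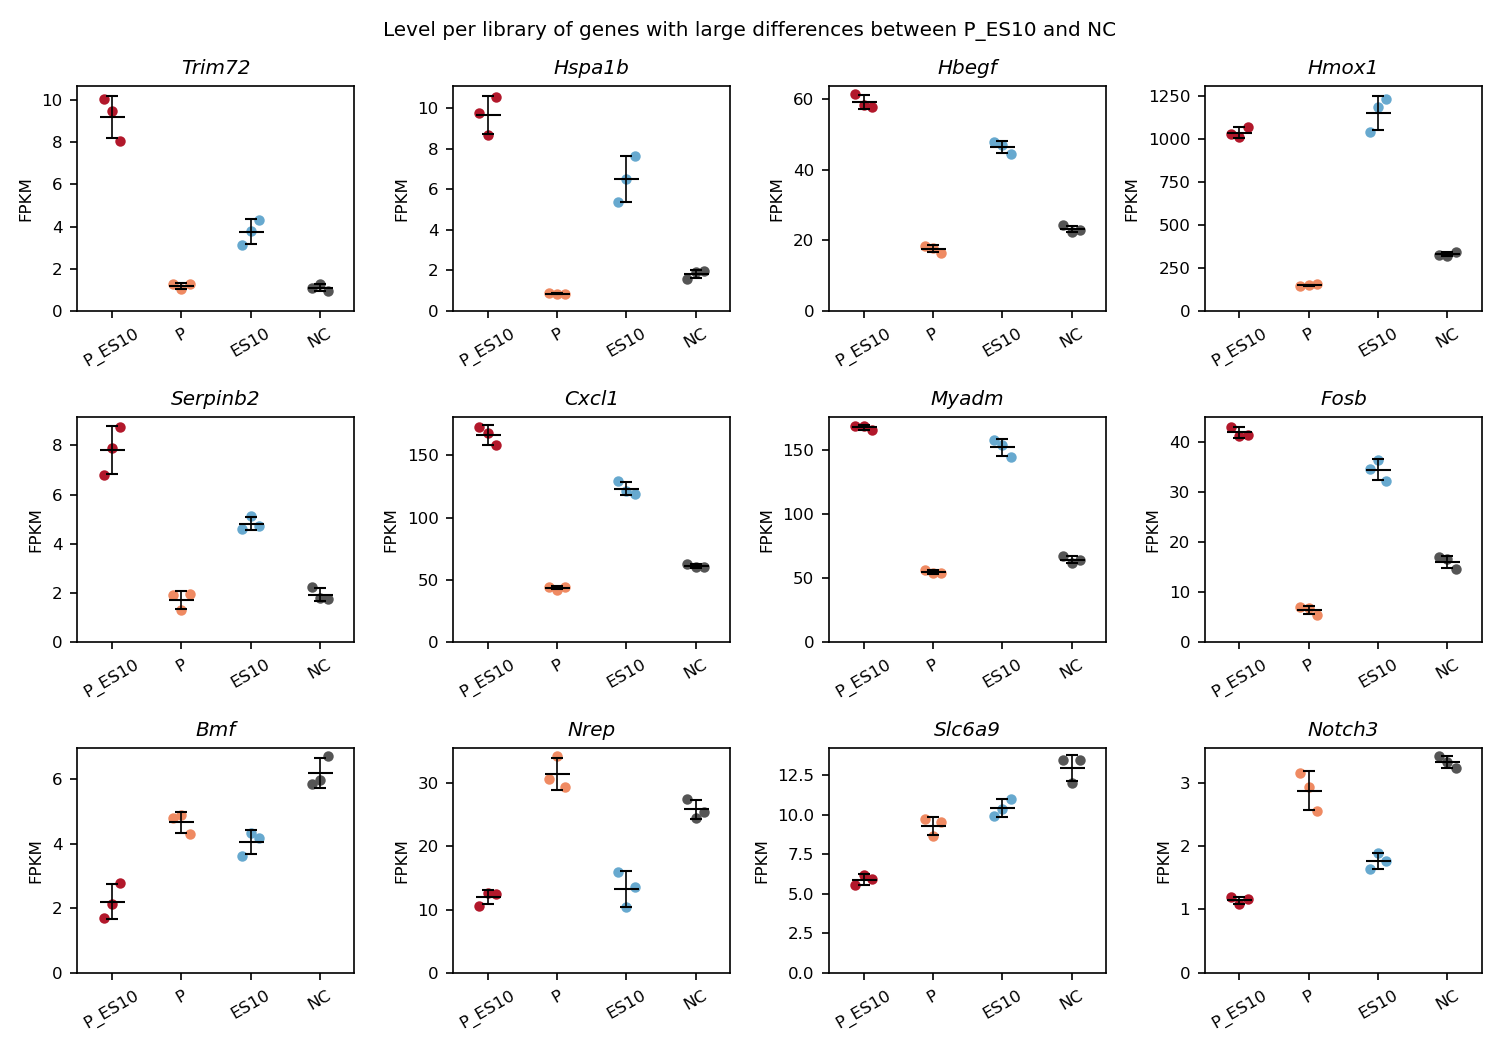
FPKM in each library (points) with mean ± SD (bars, n = 3) for 12 genes with large differences, groups P_ES10, P, ES10 and NC from left to right. Trim72 is at 8.07 FPKM or above in P_ES10 and at or below 1.28 FPKM in NC, and Bmf, Nrep, Slc6a9 and Notch3 are lower in P_ES10 than in NC.

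Chaperone genes of the heat shock response were higher in P_ES10. Of 17 tested members 11 were higher and 0 lower, with a median of 0.36. After quantile normalization or scaling to nuclear reads 8 were higher and 1 lower. Hspa1b, an inducible HSP70 gene, had 9.76, 8.71 and 10.6 FPKM in P_ES10, against 0.905, 0.827 and 0.833 in P, 5.36, 6.54 and 7.65 in ES10 and 1.60, 1.90 and 1.99 in NC. P_ES10 libraries lay above all others, ES10 above NC, and P below NC. The difference from NC was 1.91 ± 0.11 (limma, adjusted p = 4.99e-07). Its deposited position (chromosome 20, 4877324 to 4879779, minus strand, Rnor 6.0) overlaps RT1 genes, and reads may be split with its near-identical neighbour Hspa1a.

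Hsph1, a nucleotide exchange factor for HSP70, had 210.0, 199 and 215 FPKM in P_ES10, against 123.2, 129 and 132 in P, 168, 175 and 186 in ES10 and 126, 123.4 and 129.6 in NC (0.71 ± 0.04, adjusted p = 9.16e-07). Bag3, which couples HSP70 to autophagy, had 111, 109 and 119 FPKM in P_ES10, against 76.8, 69.5 and 75.2 in P, 99.6, 108 and 108 in ES10 and 77.4, 77.8 and 78.0 in NC (0.53 ± 0.05, adjusted p = 1.50e-05). Both had their lowest P_ES10 library above the highest library of P, ES10 and NC, although for Bag3 the gap to ES10 was small. The constitutive chaperone Hsp90ab1 rose by 0.40 ± 0.03 (adjusted p = 1.70e-06).

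The upstream sequences of Hsph1 and Bag3 are shown because heat shock factor acts through inverted repeats of GAA and TTC. They are the 250 bases before the annotated start in RefSeq (build GRCr8, Hsph1 at chr12:10427118-10427367, plus strand, and Bag3 at chr1:192533210-192533459, plus strand), 5′ to 3′. Capitals mark matches to GAANNTTC or TTCNNGAA.
Hsph1: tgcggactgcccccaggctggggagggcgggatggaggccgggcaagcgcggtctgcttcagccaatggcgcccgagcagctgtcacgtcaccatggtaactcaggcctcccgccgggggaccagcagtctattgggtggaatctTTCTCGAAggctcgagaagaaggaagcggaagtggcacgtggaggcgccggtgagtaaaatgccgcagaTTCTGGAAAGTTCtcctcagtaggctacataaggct
Bag3: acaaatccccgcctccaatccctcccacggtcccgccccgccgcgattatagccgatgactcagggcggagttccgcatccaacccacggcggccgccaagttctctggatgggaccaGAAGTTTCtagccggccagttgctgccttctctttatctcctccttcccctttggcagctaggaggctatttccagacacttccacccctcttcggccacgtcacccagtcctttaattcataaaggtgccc
Hsph1 held 3 matches, beginning at -105, -36 and -31 bases from the start, of which the last pair overlap, and Bag3 held 1 at -132. Over windows from 250 bases before to 50 after the start, 9 of 14 heat shock list promoters found in RefSeq held a match, and 15.9% of 33469 promoters did. Both motifs are the same on either strand. These matches describe the letters and are not measured binding sites.

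Immediate early genes, transcription factors and regulators that cells switch on within minutes of a stimulus, were higher in P_ES10. Of 27 tested members 19 were higher and 1 lower, with a median of 0.36. Under the scalings tried 16 to 20 were higher and 1 to 3 lower. Fosb had 43.2, 41.2 and 41.6 FPKM in P_ES10, against 7.06, 6.71 and 5.37 in P, 34.7, 36.5 and 32.3 in ES10 and 16.9, 16.5 and 14.5 in NC. P_ES10 libraries exceeded all others and P libraries lay below all others, and the difference from NC was 1.34 ± 0.08 (adjusted p = 1.12e-06). The related gene Fos had 48.2, 42.8 and 46.5 FPKM in P_ES10, against 9.49, 7.73 and 7.92 in P, 32.0, 35.2 and 27.5 in ES10 and 22.02, 19.3 and 16.6 in NC, in the same order of groups (1.21 ± 0.11, adjusted p = 2.04e-05). The growth regulator Myc had 46.3, 43.6 and 44.3 FPKM in P_ES10, against 16.3, 13.6 and 13.8 in P, 38.5, 40.5 and 39.1 in ES10 and 19.3, 19.96 and 19.9 in NC (1.14 ± 0.06, adjusted p = 2.74e-07). Fosl1 rose by 1.01 ± 0.03, Klf2, a factor best known from endothelial flow responses, by 1.20 ± 0.13, Klf4 by 0.76 ± 0.08 and Jun by 0.59 ± 0.04. The lower member was Junb, at -0.24 ± 0.05 (adjusted p = 0.00272).

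Egr1, a zinc finger factor, had 28.0, 22.1 and 24.1 FPKM in P_ES10, against 8.11, 6.38 and 5.89 in P, 22.5, 24.7 and 19.3 in ES10 and 15.4, 15.3 and 13.6 in NC, with P_ES10 overlapping ES10 and both above NC. The difference from NC was 0.70 ± 0.12 (adjusted p = 0.00129). Its upstream sequence is shown because serum response factor acts on such genes through the CArG box. It holds the 250 bases before the RefSeq start (build GRCr8, chr18:26736828-26737077, plus strand), with 2 CArG boxes in capitals, beginning at -105 and -83.
Egr1: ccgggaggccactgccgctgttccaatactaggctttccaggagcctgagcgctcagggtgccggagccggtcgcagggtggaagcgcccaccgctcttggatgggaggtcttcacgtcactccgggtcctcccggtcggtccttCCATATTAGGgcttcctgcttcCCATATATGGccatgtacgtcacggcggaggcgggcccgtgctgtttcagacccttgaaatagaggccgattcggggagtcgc
Such a box was found in 1.64% of 33469 windows of 300 bases and in those of 5 of 19 immediate early genes with a RefSeq promoter (Egr1, Egr2, Klf6, Dusp5 and Zfp36). The match is on both strands and describes letters only.

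The immediate early genes stood on opposite sides of NC in the single treatments. In P, where 16.0% of genes were higher and 15.1% lower than in NC, 0 of the 27 were higher and 21 lower (median -0.35). In ES10, where 16.4% were higher and 8.75% lower, 17 were higher and 2 lower (median 0.35). These comparisons share the NC libraries.

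Genes of cholesterol synthesis and uptake were higher in P_ES10. Of 23 tested members 13 were higher and 0 lower, with a median of 0.43, and the count was 13 and 0 under each of the 3 other scalings. Idi1, isopentenyl diphosphate isomerase, had 20.5, 18.1 and 20.5 FPKM in P_ES10, against 3.84, 3.79 and 3.84 in P, 17.1, 15.1 and 16.0 in ES10 and 7.63, 7.09 and 7.05 in NC, with P_ES10 above all other libraries and P below them (1.32 ± 0.06, adjusted p = 9.98e-08). It overlaps Wdr37 on the opposite strand. Hmgcs1, an early enzyme of the pathway, had 70.0, 68.6 and 69.0 FPKM in P_ES10, against 22.7, 23.2 and 21.6 in P, 55.0, 53.2 and 47.6 in ES10 and 31.5, 28.7 and 29.0 in NC (1.19 ± 0.05, adjusted p = 1.38e-07), in the same order of groups. Msmo1, a sterol methyl oxidase, had 119.6, 118 and 115 FPKM in P_ES10, against 65.1, 61.7 and 60.03 in P, 107, 114 and 109 in ES10 and 61.3, 58.6 and 58.8 in NC, with P and NC overlapping (0.97 ± 0.04, adjusted p = 3.17e-08). Against the same NC libraries, 1 of the 23 was higher and 12 lower in P, and 19 were higher and 0 lower in ES10. Over all tested genes, 16.0% were higher and 15.1% lower in P, and 16.4% higher and 8.75% lower in ES10. Fatty acid and triglyceride genes went another way, with 1 of 15 higher and 4 lower. The desaturase Scd2 fell by 0.69 and the acyltransferase Gpam by 0.40 on the log2 scale.

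Among NRF2 antioxidant targets Hmox1, the inducible heme-degrading enzyme, stood out. It had 1025, 1009 and 1069.8 FPKM in P_ES10, against 144, 148 and 154 in P, 1041, 1185 and 1229 in ES10 and 326, 321 and 341 in NC. P_ES10 and ES10 libraries overlapped at a level far above NC, and P lay below NC. The mean was 3.14-fold that of NC (1.65 ± 0.05, adjusted p = 1.71e-08). The list as a whole moved less, with 7 of 23 higher and 3 lower and a median of 0.07, which was -0.02 after scaling to nuclear reads. Txnrd1, thioredoxin reductase, rose by 0.58 ± 0.03 (adjusted p = 4.76e-07) and Srxn1, sulfiredoxin, by 0.55 ± 0.05 (adjusted p = 1.22e-05). The cystine transporter Slc7a11 was lower (-0.43 ± 0.07).

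NF-kB and cytokine genes were higher in 12 of 17 tested cases and lower in 0, with a median of 0.26. Cxcl1, a chemokine that attracts neutrophils, had 173, 168 and 158 FPKM in P_ES10, against 44.1, 41.9 and 44.2 in P, 129, 121 and 119 in ES10 and 63.0, 60.6 and 59.8 in NC, with all 4 groups apart (1.43 ± 0.04, adjusted p = 7.23e-09). The adhesion molecule Icam1 had 135, 143 and 136 FPKM in P_ES10, against 106, 104 and 105 in P, 89.2, 91.2 and 91.5 in ES10 and 77.6, 77.9 and 81.2 in NC, again with P_ES10 highest (0.80 ± 0.03, adjusted p = 3.17e-08). Il1rl1, the receptor of IL-33, had 17.997, 18.1 and 17.8 FPKM in P_ES10, against 7.20, 7.48 and 8.06 in P, 14.0, 13.6 and 13.2 in ES10 and 7.29, 8.28 and 7.30 in NC, with P overlapping NC (1.14 ± 0.05, adjusted p = 1.54e-07). Tnfaip3, a feedback inhibitor of NF-kB, rose by 0.77 ± 0.09, and Csf1, the macrophage growth factor, by 0.60 ± 0.06. Interferon response genes were split, with 4 of 15 higher and 5 lower. The antigen transporter Tap1 rose by 0.39 ± 0.04, while Irf7 (-0.55 ± 0.06) and Cxcl10 (-0.78 ± 0.14) fell.

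**Figure D3:**
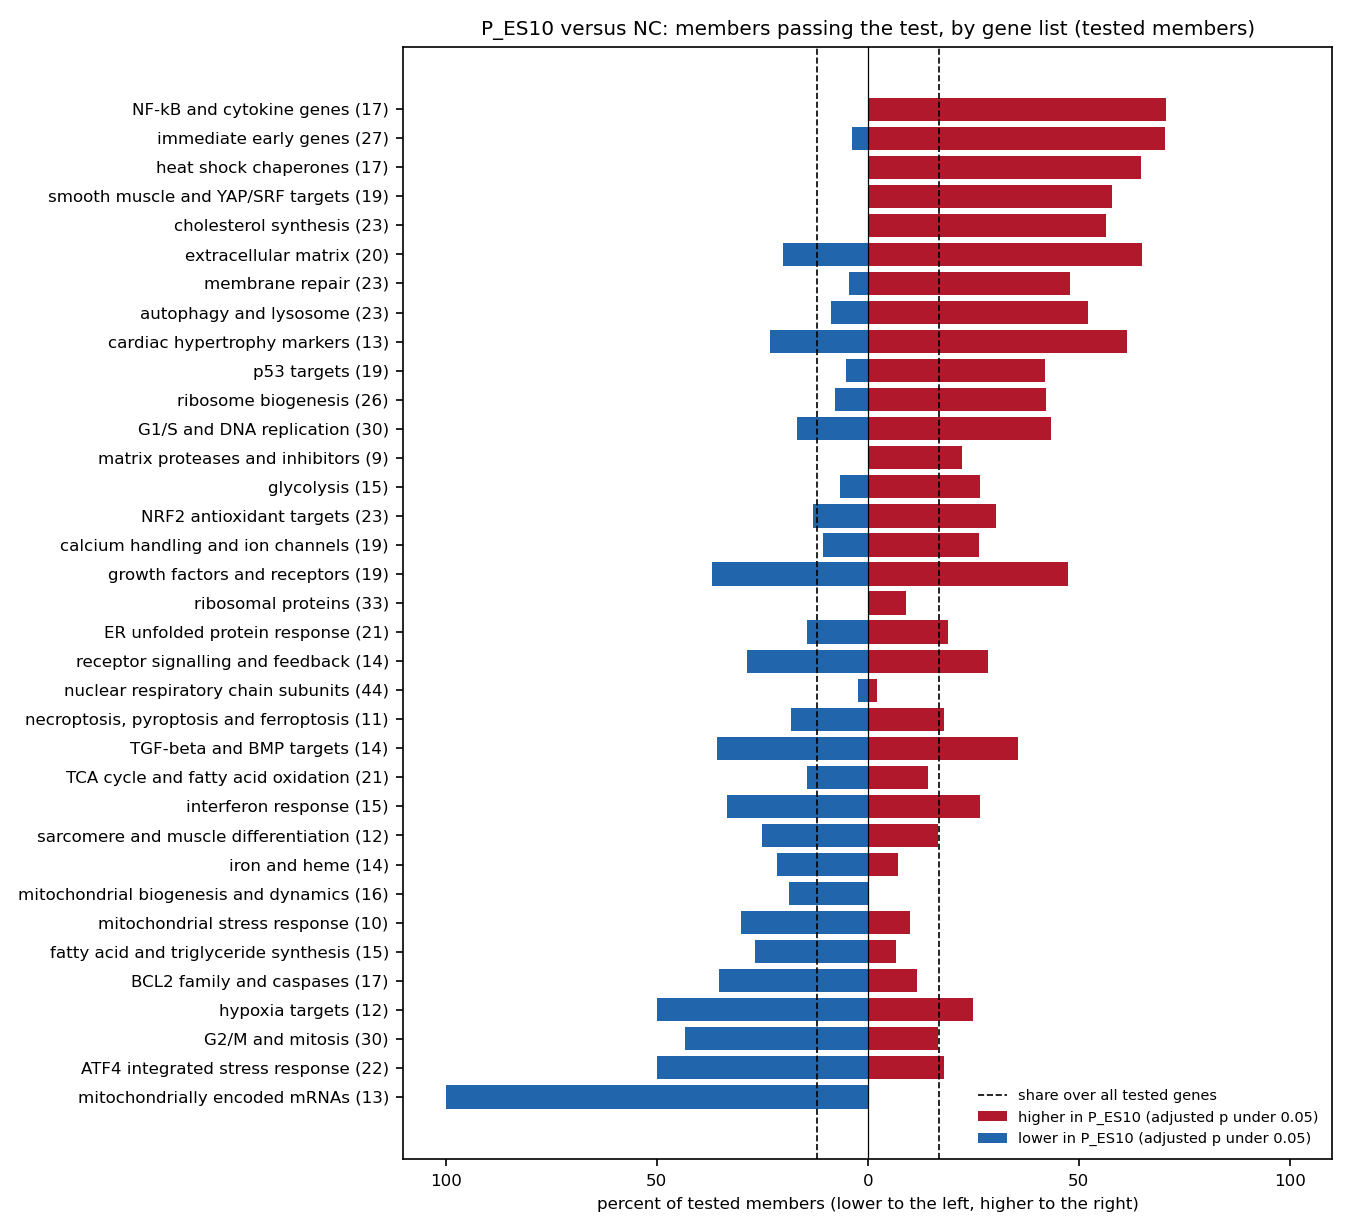
Percent of the tested members of each gene list (tested number in brackets) called higher (right, red) or lower (left, blue) in P_ES10 than in NC. Dashed lines are the shares over all tested genes, 16.9% higher and 12.1% lower, and all 13 mitochondrially encoded mRNAs are lower.

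Markers of cardiac hypertrophy, the enlargement of heart muscle cells, were higher in 8 of 13 tested cases and lower in 3 (median 0.54), and the count was the same under each of the 3 other scalings. Postn, which encodes the matrix protein periostin, had 30.7, 33.0 and 31.6 FPKM in P_ES10, against 25.2, 26.8 and 25.4 in P, 14.6, 14.8 and 14.8 in ES10 and 14.7, 15.2 and 14.6 in NC, with P_ES10 above P and both above the overlapping ES10 and NC libraries (1.05 ± 0.04, adjusted p = 1.79e-08). Ankrd1, a stretch-responsive titin-binding protein, had 124, 119 and 132 FPKM in P_ES10, against 64.3, 65.8 and 69.5 in P, 91.4, 95.8 and 86.9 in ES10 and 70.5, 65.8 and 64.1 in NC (0.89 ± 0.05, adjusted p = 6.57e-07). Fhl1 rose by 0.66 ± 0.03 and Rcan1, a feedback target of calcineurin, by 0.48 ± 0.04.

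The classical fetal heart markers did not follow. Nppa, the atrial natriuretic peptide gene, and Myh7, beta myosin, did not reach the filter, at no more than 0.139 and 0.0139 FPKM in any P_ES10 library and 0.149 and 0.00636 FPKM in NC. Nppb, the brain natriuretic peptide gene, had 1.88, 2.13 and 1.84 FPKM in P_ES10, against 3.58, 3.67 and 3.52 in P, 2.33, 2.14 and 1.70 in ES10 and 2.82, 1.74 and 2.14 in NC (-0.12 ± 0.12, adjusted p = 0.486, not called), and P libraries lay above NC. Skeletal actin, Acta1, was lower, at 7.30, 7.37 and 7.44 FPKM in P_ES10, against 4.90, 4.22 and 4.83 in P, 9.96, 9.94 and 10.6 in ES10 and 10.4, 8.87 and 9.54 in NC (-0.34 ± 0.06, adjusted p = 0.00190). Tgfb1 was also lower (-0.70 ± 0.06).

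Targets of the YAP and SRF pathways and smooth muscle genes were higher in 11 of 19 cases and lower in 0 (median 0.12), and under other scalings 6 to 13 were higher and 0 or 1 lower. Cyr61, a matricellular YAP target, had 72.9, 70.4 and 69.6 FPKM in P_ES10, against 112, 113 and 110.3 in P, 36.2, 37.9 and 33.3 in ES10 and 36.9, 35.9 and 37.9 in NC. P lay above P_ES10, which lay above the overlapping ES10 and NC libraries (0.93 ± 0.04, adjusted p = 1.54e-07). Ctgf, a related protein, had 64.8, 64.6 and 66.3 FPKM in P_ES10, against 82.4, 84.7 and 87.2 in P, 39.4, 46.0 and 41.1 in ES10 and 37.8, 37.3 and 38.3 in NC, in the same order of P, P_ES10 and the rest (0.77 ± 0.05, adjusted p = 9.61e-07). Amotl2, a YAP inhibitor and target, rose by 0.88 ± 0.05 (adjusted p = 5.48e-07), and the cytoskeletal genes Vcl and Cald1 by 0.30 ± 0.03 and 0.25 ± 0.04.

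Extracellular matrix genes were higher in 13 of 20 cases and lower in 4, mostly by small amounts (median 0.16). Sparc had a difference of 0.27 ± 0.03 (adjusted p = 6.45e-05), biglycan (Bgn) of 0.28 ± 0.04 and fibrillin 1 (Fbn1) of -0.37 ± 0.04. Col1a2, a chain of type I collagen, had 792, 1038 and 832 FPKM in P_ES10, against 289, 447 and 519 in P, 345, 388 and 616 in ES10 and 455, 367 and 327 in NC, a wide spread within groups (1.21 ± 0.25, adjusted p = 0.00366). Its partner chain Col1a1 had 1453, 1530.4 and 1499.5 FPKM in P_ES10, against 1691, 1636 and 1609.6 in P, 1503, 1620.3 and 1539 in ES10 and 1427, 1434 and 1485 in NC, with overlapping groups (0.04 ± 0.03, adjusted p = 0.372, not called). Counts of matrix genes fell to 8 higher and 4 or 5 lower after quantile normalization or scaling to nuclear reads.

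Growth factors and receptors were split, with 9 of 19 higher and 7 lower. Hbegf, a ligand of the EGF receptor, had 61.5, 58.4 and 57.7 FPKM in P_ES10, against 18.5, 17.8 and 16.5 in P, 48.0, 47.0 and 44.5 in ES10 and 24.2, 22.5 and 23.0 in NC, with P_ES10 highest and P lowest (1.31 ± 0.05, adjusted p = 2.85e-08). Endothelin 1 (Edn1) rose by 0.81 ± 0.10. The receptor genes Pdgfrb (-0.57 ± 0.03) and Ednra (-0.52 ± 0.09) fell. Inhibitors of differentiation Id1 and Id2, targets of BMP signalling, rose by 0.57 ± 0.07 and 0.45 ± 0.05, while the inhibitory Smad6 fell by 0.53.

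Receptor and second messenger genes were called in 4 higher and 4 lower of 14 tested, where 16.9% and 12.1% of all tested genes were. The alpha-1 adrenoceptor genes were at or below the filter, with Adra1a listed at 0 in every library of the 4 groups, Adra1d at 0 in P_ES10, P and NC, and Adra1b at no more than 0.712 FPKM in P_ES10 and 1.18 FPKM in NC. The calcium release channel Itpr1 rose by 0.44 ± 0.05, while the G protein Gna11 (-0.25 ± 0.04) and its effector Plcb3 (-0.20 ± 0.04) fell. Among calcium handling and ion channel genes 5 of 19 were higher and 2 lower, beside the same shares over all tested genes. The higher ones included the calsequestrin Casq1 (0.51 ± 0.09), the sodium pump subunit Atp1b1 (0.49 ± 0.03), which overlaps Nme7, the gap junction gene Gja1 (0.40 ± 0.04) and the channel gene Cacna1c (0.26 ± 0.06).

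Muscle differentiation genes had 2 higher and 3 lower of 12 tested, where 16.9% and 12.1% of all tested genes were. Myod1, the master regulator of skeletal myoblasts, had 56.6, 55.9 and 56.9 FPKM in P_ES10, against 25.9, 21.8 and 22.6 in P, 58.9, 59.6 and 61.9 in ES10 and 31.9, 32.2 and 31.9 in NC, with ES10 above P_ES10 and P below NC (0.80 ± 0.05, adjusted p = 1.24e-06). The thin filament gene Tnnc2 fell by 0.33, the light chain Mylpf by 0.67 and the myoblast cadherin Cdh15 by 0.49, while nebulin (Neb) rose by 0.33 ± 0.06.

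Genes of the ATF4 pathway, which serves amino acid supply under stress, were lower in 11 of 22 cases and higher in 4 (median -0.10). The serine synthesis enzyme Phgdh had 21.2, 22.1 and 21.1 FPKM in P_ES10, against 32.4, 29.6 and 30.4 in P, 29.8, 32.3 and 29.2 in ES10 and 39.4, 37.4 and 37.8 in NC, with P_ES10 below all other libraries (-0.80 ± 0.05, adjusted p = 5.22e-07). Psat1 and the tryptophan tRNA synthetase Wars fell by 0.28 and 0.42. Ppp1r15a, which restores translation by directing eIF2 dephosphorylation, went the other way, at 121, 115 and 119 FPKM in P_ES10, against 43.7, 45.7 and 44.4 in P, 97.4, 102 and 94.2 in ES10 and 61.6, 59.7 and 61.8 in NC, with the 4 groups apart (0.95 ± 0.04, adjusted p = 3.17e-08). The pseudokinase gene Trib3 fell by 0.58. Against NC, 0 of the 22 were higher and 21 lower in P, and 10 were higher and 2 lower in ES10. The shares over all tested genes were 16.0% higher and 15.1% lower in P, and 16.4% and 8.75% in ES10. Genes of the unfolded protein response were split, with 4 of 21 higher and 3 lower, near the shares of 16.9% and 12.1% over all tested genes. The higher ones included Dnajb9 (0.47 ± 0.05), Atf6 (0.43 ± 0.03) and Hspa5 (0.22 ± 0.03), and the lower ones Xbp1 (-0.22 ± 0.04). After scaling to nuclear reads 3 were higher and 7 lower.

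**Figure D4:**
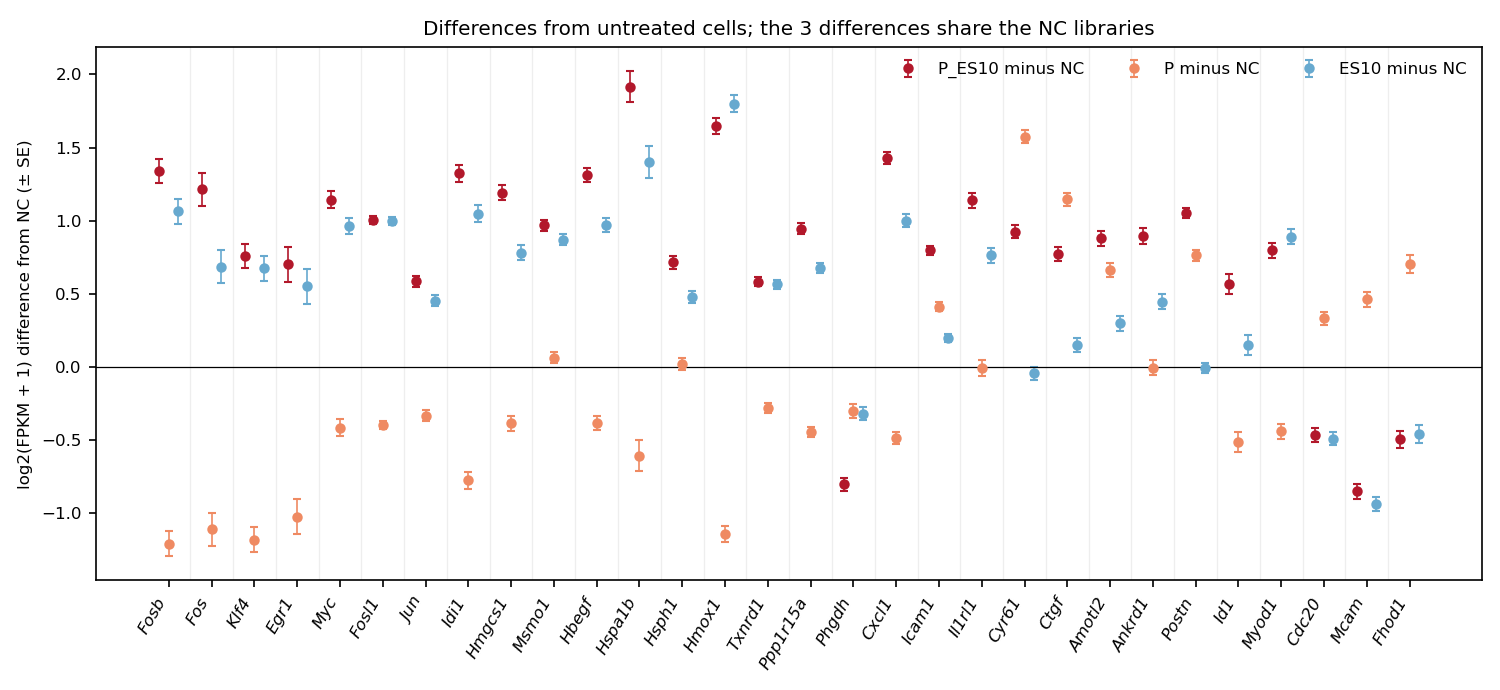
Difference from NC on the log2(FPKM + 1) scale (± SE) of 30 genes in P_ES10, P and ES10. P_ES10 and ES10 lie above NC and P below it for Fosb, Fos, Klf4, Egr1, Myc, Idi1, Hspa1b and Hmox1, while P is highest for Cyr61 and Ctgf.

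Cell cycle genes separated by phase. Of 30 tested genes of G1/S and DNA replication 13 were higher and 5 lower, whereas of 30 genes of G2/M and mitosis 5 were higher and 13 lower (medians 0.16 and -0.13). Over all tested genes 16.9% were higher and 12.1% lower. The replication genes Mcm3, Rrm1 and Pcna rose by 0.39 ± 0.04, 0.43 ± 0.05 and 0.40 ± 0.05. Cyclin D1 (Ccnd1) had 104, 109 and 109 FPKM in P_ES10, against 151, 149.8 and 152 in P, 112, 110.4 and 117 in ES10 and 148, 146 and 149.6 in NC, with both pulsed groups below P and NC (-0.46 ± 0.03, adjusted p = 1.10e-06). Cdc20, which activates the anaphase-promoting complex, had 16.4, 15.5 and 16.5 FPKM in P_ES10, against 30.4, 27.3 and 28.8 in P, 16.3, 15.8 and 15.5 in ES10 and 23.8, 22.5 and 21.8 in NC, with P above NC and both pulsed groups below it (-0.47 ± 0.05, adjusted p = 3.78e-05). The kinesin Kif20a fell by 0.30 and the spindle protein gene Ckap2 by 0.41, though Mki67, a proliferation marker, rose by 0.31 ± 0.05. Against NC, 18 of the 30 mitotic genes were higher and 0 lower in P, and 3 were higher and 15 lower in ES10. The shares over all tested genes were 16.0% higher and 15.1% lower in P, and 16.4% and 8.75% in ES10. Of 26 ribosome biogenesis genes 11 were higher, such as Gnl3 (0.56 ± 0.03), and 2 lower, and of 33 ribosomal protein genes 3 were higher and 0 lower. The direction of the ribosomal protein calls turned with the scaling, with 1 higher and 10 lower after quantile normalization and 0 higher and 6 lower after scaling to nuclear reads.

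Cell death genes did not move in one direction. Of 17 BCL2 family and caspase genes 2 were higher and 6 lower (median -0.13), and after scaling to nuclear reads 0 were higher and 9 lower. Besides Bmf, the pro-apoptotic genes Bcl2l11 and Bak1 fell by 0.49 and 0.26 and the initiator caspase Casp9 by 0.37. Bcl2, which blocks apoptosis, had 4.25, 3.44 and 3.50 FPKM in P_ES10, against 2.38, 2.74 and 2.45 in P, 3.25, 2.96 and 3.14 in ES10 and 2.88, 2.81 and 2.99 in NC (0.28 ± 0.07, adjusted p = 0.0162), and its call was lost after scaling to nuclear reads (adjusted p = 0.0501), without NC replicate 2 (0.0515) and without P_ES10 replicate 1 (0.0588). Bax, which permeabilises mitochondria, had 52.1, 55.2 and 53.1 FPKM in P_ES10, against 46.6, 47.4 and 48.5 in P, 57.2, 60.6 and 57.4 in ES10 and 47.7, 51.3 and 57.4 in NC, with overlapping groups (0.04 ± 0.06, adjusted p = 0.649, not called). The outer membrane channel Vdac1 fell by 0.26 (adjusted p = 0.0211), a call lost without NC replicate 1 or 3 or P_ES10 replicate 1 or 2 (adjusted p of 0.0655, 0.0729, 0.0589 and 0.0558).

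Of 19 p53 targets 8 were higher and 1 lower. Gadd45b rose by 0.68 ± 0.03 (adjusted p = 1.38e-07), the stress kinase Plk2 by 0.65 ± 0.03, the BH3-only gene Pmaip1 by 0.54 ± 0.06 and Mdm2, the ligase that degrades p53, by 0.44 ± 0.04. Cdkn1a, which encodes p21, differed by 0.13 ± 0.03 (adjusted p = 0.0151), a call lost after quantile normalization and scaling to nuclear reads (adjusted p of 0.482 and 0.346) and without NC replicate 2 or P_ES10 replicate 3 (0.0586 and 0.0531). In the other death pathways 2 of 11 genes were higher and 2 lower, where 16.9% and 12.1% of all tested genes were. The necroptosis kinase Ripk3 rose by 0.35 ± 0.04, while its substrate Mlkl and the inflammatory caspase Casp4 fell by 0.42 and 0.71.

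The pulses added to PE-treated cells can be read from P_ES10 against P, in which 5092 genes (44.1%) were called, 2657 higher and 2435 lower. The split was 1848 higher and 3642 lower after scaling to total reads, and 1967 and 3419 after scaling to nuclear reads. Hmox1 had the largest named increase, at 2.79 ± 0.05 (limma, adjusted p = 2.12e-10), followed by Fosb (2.55 ± 0.08), Hspa1b (2.52 ± 0.11), Fos (2.32 ± 0.11) and Trim72 (2.22 ± 0.11). The largest named decreases were those of Rbm39, Nrep, Mcam, Fhod1 and Gas7. Mcam, a cell adhesion molecule, had 4.90, 4.87 and 4.91 FPKM in P_ES10, against 13.7, 13.3 and 14.0 in P, 5.01, 4.27 and 4.41 in ES10 and 9.30, 9.66 and 9.94 in NC (-1.31 ± 0.05, adjusted p = 1.68e-08), with both pulsed groups below P and NC. Fhod1, a formin that bundles actin, had 12.99, 14.5 and 14.0 FPKM in P_ES10, against 34.7, 32.9 and 31.6 in P, 13.3, 14.7 and 14.6 in ES10 and 18.8, 19.5 and 21.4 in NC (-1.20 ± 0.06). The splicing factor Rbm39 varied widely between replicates, at 2.92, 0.254 and 1.52 FPKM in P_ES10, against 5.38, 6.97 and 4.50 in P, 0.415, 0.662 and 0.937 in ES10 and 2.01, 4.0 and 7.62 in NC (-1.50 ± 0.42, adjusted p = 0.0132).

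Where 23.0% of all tested genes were higher and 21.1% lower, 21 of 27 immediate early genes were higher and 1 lower in P_ES10 than in P, 17 of 23 cholesterol genes were higher and 0 lower, 12 of 17 chaperones were higher and 1 lower, and 24 of 30 mitotic genes were lower and 3 higher.

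The contrast of P_ES10 with ES10 shows pulsed cells with and without PE, and it held 1333 calls (11.5%), 562 higher and 771 lower. The split turned to 1090 higher and 407 lower after scaling to total reads. In the fit of all 18 libraries 215 genes were called. Leaving out one library of the 2 groups gave between 713 and 923 calls, with 805 and 713 without P_ES10 replicate 1 and 2, and 875 and 770 without ES10 replicate 1 and 2. Trim72 had the largest named increase (1.10 ± 0.11, adjusted p = 2.88e-04), followed by Postn (1.06 ± 0.04), Col1a2 (1.02 ± 0.25), Cyr61 (0.97 ± 0.04) and Icam4 (0.92 ± 0.16). The call of Col1a2 was lost without ES10 replicate 1 or 2 or P_ES10 replicate 2 or 3 (adjusted p of 0.0830, 0.0807, 0.0868 and 0.0528), and that of Icam4 in the 18-library fit (0.0557). Rps19, Mt-nd4, Mt-atp8, Slc6a9 and Mt-nd5 had the largest named decreases. Rps19, a ribosomal protein with many processed pseudogenes, had 138, 196 and 154 FPKM in P_ES10, against 157, 126 and 180.4 in P, 259.8, 311 and 282 in ES10 and 239, 131 and 204 in NC (-0.81 ± 0.21, adjusted p = 0.0310), with a wide spread in NC. Its call was lost without any one of the 3 ES10 libraries (0.0571, 0.0980 and 0.0722) and without P_ES10 replicate 1 or 3 (0.104 and 0.0854). The call of Mt-nd4 (-0.74 ± 0.20) was lost without any one of the ES10 libraries (0.0917, 0.0930 and 0.0869) and without P_ES10 replicate 2 or 3 (0.0530 and 0.0730). Slc6a9 differed by -0.73 ± 0.06 (adjusted p = 1.03e-04) and Mt-nd5 by -0.67 ± 0.06 (adjusted p = 9.05e-05). Where 4.87% of all tested genes were higher and 6.68% lower, 9 of 17 NF-kB and cytokine genes were higher and 0 lower, and 14 of 22 ATF4 genes were lower and 1 higher.

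Whether the joint difference departs from the sum of the single ones was tested by the response to 10 pulses with PE minus that without, on the log2 scale. Of 11549 genes 704 (6.1%) departed, 331 above the sum and 373 below it. After scaling to total reads the counts were 253 and 755, and in the fit of all 18 libraries 67 and 41. Without P_ES10 replicate 1 there were 448 calls in all, and without P_ES10 replicate 3 there were 465. The largest named departures above the sum were those of immediate early genes. Of this list 17 of 27 were above the sum and 0 below, where 2.87% of genes were above. Fos departed by 1.64 ± 0.16 (limma, adjusted p = 3.82e-04), Fosb by 1.48 ± 0.12 (adjusted p = 1.61e-04), Klf4 by 1.26 ± 0.12 (adjusted p = 3.56e-04) and Egr1 by 1.18 ± 0.17 (adjusted p = 0.00292). Hspa1b departed by 1.12 ± 0.15 (adjusted p = 0.00218).

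For Fos, Fosb, Klf4 and Egr1 the P libraries were the lowest of the 4 groups, and the P_ES10 libraries lay above the ES10 libraries for Fos and Fosb and overlapped them for Klf4 and Egr1. Klf4 had 24.9, 23.6 and 23.8 FPKM in P_ES10, against 5.19, 6.56 and 5.02 in P, 23.0, 24.6 and 20.6 in ES10 and 14.6, 13.6 and 13.5 in NC. P lay below NC, and both pulsed groups lay above it. Of the 13 mitochondrial mRNAs 12 departed upward, with a median of 0.73, and Mt-nd5 did so by 0.64 ± 0.08 (adjusted p = 0.00128). Trim72 (1.05 ± 0.15, adjusted p = 0.00316), Hmox1 (0.99 ± 0.08, adjusted p = 1.40e-04) and Idi1 (1.05 ± 0.08, adjusted p = 1.34e-04) departed upward as well. The call for Trim72 was lost in the 18-library fit, with an adjusted p of 0.296.

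Below the sum lay Hoxb5, Fam132a, Fhod1, Cabp4 and Apbb3. Apbb3, which encodes an adaptor that binds the amyloid precursor protein, had 6.27, 7.02 and 6.97 FPKM in P_ES10, against 12.4, 13.01 and 11.98 in P, 6.95, 6.49 and 7.13 in ES10 and 6.57, 7.43 and 7.65 in NC, with P above the other groups, which overlapped (-0.73 ± 0.09, adjusted p = 0.00109). The homeobox gene Hoxb5 had 0.922, 0.856 and 1.02 FPKM in P_ES10, against 2.80, 2.93 and 2.30 in P, 1.12, 1.17 and 1.03 in ES10 and 1.21, 1.50 and 1.20 in NC, again highest in P (-0.80 ± 0.13, adjusted p = 0.00560). Fhod1 departed by -0.74 ± 0.08 (adjusted p = 8.66e-04) and Fam132a by -0.78 ± 0.15 (adjusted p = 0.0116). Cabp4, a calcium-binding protein gene near the filter, departed by -0.74 ± 0.18 (adjusted p = 0.0394), a call lost on leaving out 10 of the 12 libraries one at a time (adjusted p of 0.0584 to 0.0892). Cyr61, raised in P, departed by -0.61 ± 0.06 (adjusted p = 4.39e-04).

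**Figure D5:**
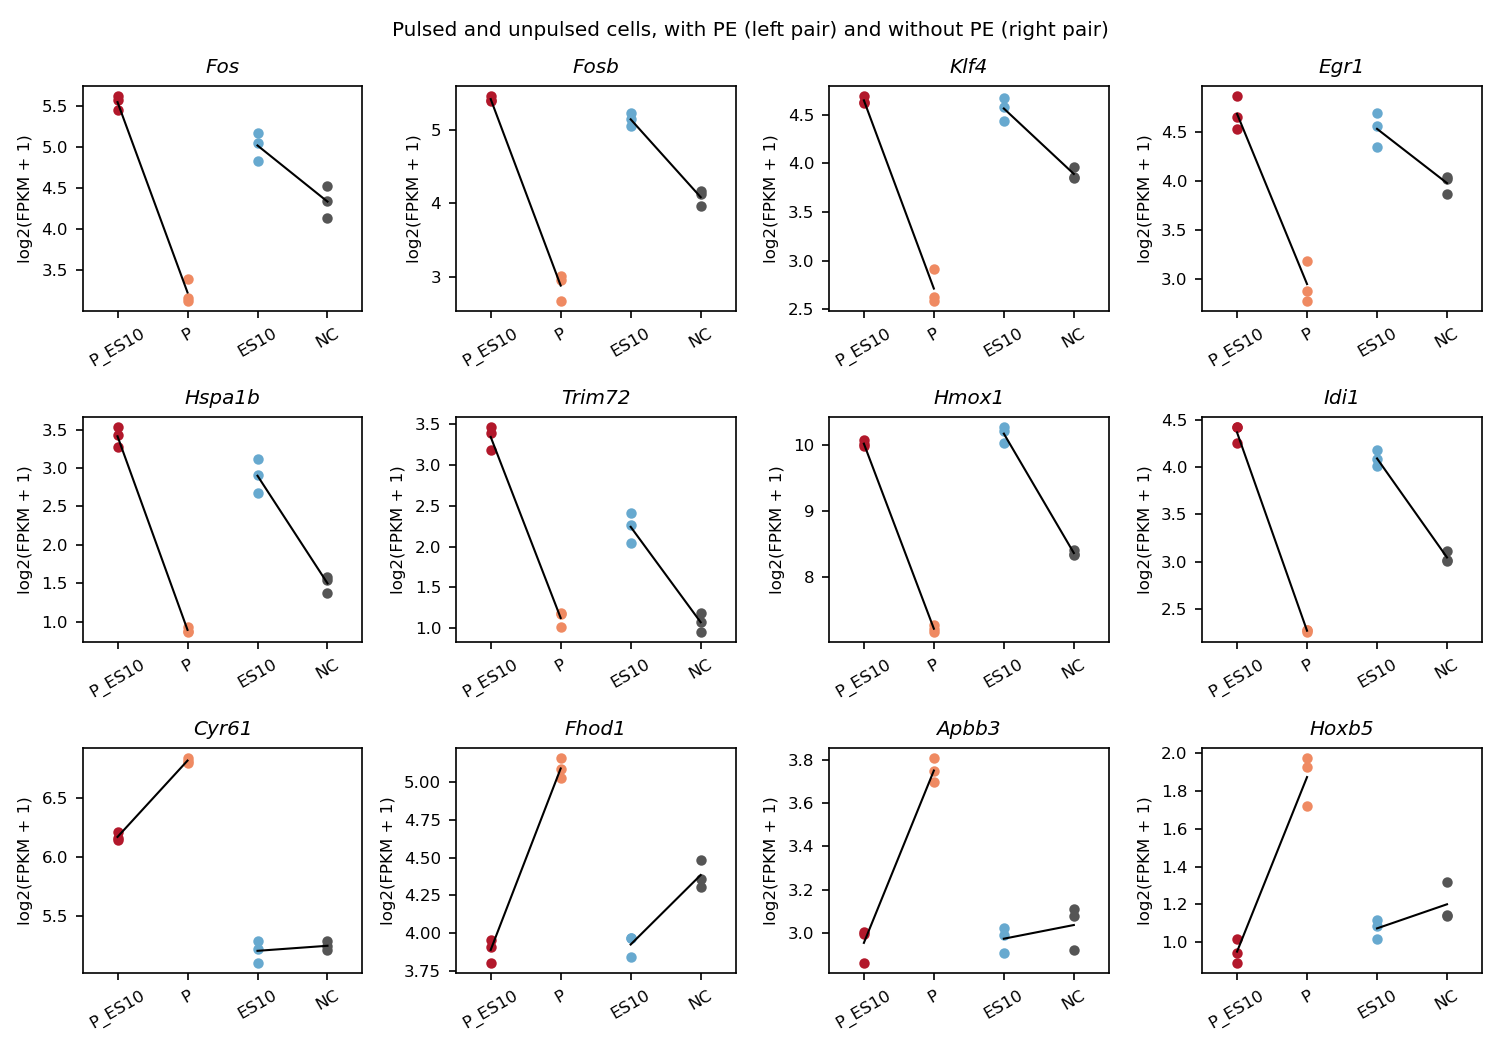
log2(FPKM + 1) of 12 genes in each library, with the pair of groups with PE (P_ES10, P) on the left and the pair without PE (ES10, NC) on the right. Lines join the group means of each pair, and a steeper line on the left than on the right is a departure from the sum, as in Fos and Fosb.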

How the data were processed

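Poly(A) RNA of rat H9C2 cells was sequenced from 1 µg of RNA per library, per the labels' protocols. The deposited FPKM per gene, for 32545 genes, were made by the authors on build Rnor 6.0, per the submitters' processing notes. The aligner, counting tool, annotation and strandedness are not stated in those sources. FPKM times gene length, divided by the smallest positive such product of the library, gave whole numbers of reads (tolerance 0.01 of a read). These gave the reads of each library and its library term.

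The 12 libraries were fitted with limma 3.58.1 in R 4.3.3 on the log2(FPKM + 1) scale, with 1 mean per group and eBayes with a trend. A gene was kept if 3 or more libraries had it at an FPKM of 1 or above. P-values were adjusted by Benjamini-Hochberg within a contrast. The groups with 50 pulses were left out of the fit, since their mitochondrial shares stand apart. Library measures were compared by exact permutation. Because the values are FPKM, no count model was used as the main test, and limma-voom on the recovered reads was added after seeing the data. Python 3.11.15, pandas 2.3.3, numpy 2.4.6, scipy 1.17.1 and matplotlib 3.10.9 made the tables and plots.

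Members and the 40 gene lists were chosen with earlier results of these data known. Named genes are the 12 largest changes each way without overlap of libraries (5 each way in the other contrasts), 4 members of each list by adjusted p and 20 fixed genes. Small RNA, clone and pseudogene names were left out, and some genes that this rule names are not reported here. Anxa7, Cxcl10, Edn1, Ednra, Junb, Klf2, Mki67, Slc7a11, Smad6, Tgfb1 and Tnfaip3 were named after their values were seen. The fit was also tested on simulated data for P_ES10 versus NC with 11423 genes and a dispersion set at 0.02 for every gene. It called 18.8% of genes given a change of 1.5-fold, 85.7% at 2-fold, 95.9% at 4-fold and 100% at 8-fold. Of 11230 genes left unchanged 0.0712% were called. The dispersion was not matched to these libraries, so these rates do not give the share of changes missed here. Most of the 3352 calls in the libraries were of less than 2-fold.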

Additional observations from a re-analysis of the deposited data

Results flagged for a closer look

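For 15 named genes the response to 10 pulses differed between cells with PE and cells without it, by limma's test of the difference of the responses on the log2(FPKM + 1) scale. The response with PE minus that without was 1.64 for Fos, 1.48 for Fosb, 1.26 for Klf4, 1.18 for Egr1 and 1.12 for Hspa1b. It was 1.05 for both Trim72 and Idi1, 0.99 for Hmox1 and 0.64 for Mt-nd5. For Hoxb5, Fam132a, Fhod1, Cabp4, Apbb3 and Cyr61 the response was lower with PE, by differences of -0.80, -0.78, -0.74, -0.74, -0.73 and -0.61.

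In libraries outside the comparison, the share of reads on mitochondrial genes was 48.6% in P_ES50 and 92.1% in ES50, both above the 12.9% of NC.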

How the results depend on the processing

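Fitting all 18 libraries gave 1393 calls for P_ES10 versus NC, 2724 versus P, 215 versus ES10 and 108 for the departure from the sum, more than 1.5 times below the 3352, 5092, 1333 and 704 of the 12-library fit. Genes in the text whose call that fit did not make were Cxcl1, Srxn1, Casp9, Mylpf, Cacna1c, Xbp1, Hspa5, Esrra, Pink1, Anxa7, Uqcrh, Ndufs7, Cdkn1a, Bcl2 and Gabarapl1 against NC, Mt-nd4, Col1a2, Icam4 and Rps19 against ES10, and Hspa1b, Klf4, Hoxb5, Cabp4 and Trim72 for the departure. Leaving out one library gave 2727 to 2881 calls against NC, 4334 to 4574 against P, 713 to 923 against ES10 and 448 to 642 for the departure, and a mitochondrial share difference of -7.12 to -5.93 percentage points. That difference was -10.7 as a share of summed FPKM. Against ES10, counts fell by over 1.5 times without P_ES10 replicate 1 or 2 or ES10 replicate 1 or 2, and for the departure without P_ES10 replicate 1 or 3. Signs turned for Mt-atp6 after quantile normalization (0.017), for Col1a1 after scaling to nuclear reads (-0.039) and for Bax under both (-0.023 and -0.043). Leaving out one library gave -0.022 to 0.11 for Bax and -0.23 to 0.0071 for Nppb, with the sign turned without NC replicate 1 in both. Quantile normalization also ended the calls of Mt-co1, Mt-co2 and Mt-cox3. It gives genes of equal rank the same value in every library, which leaves no difference for a gene that keeps its rank. Mt-co1 and Mt-co2 both had a difference of -1.8e-15 under it. The causes of the other changes were not tested. Over 3014 values of named genes under the alternatives, 2936 kept direction and side of the threshold, 72 lost a call and 6 turned sign.

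Same-numbered libraries of different groups did not deviate together, with correlations of deviations of -0.0879 to 0.101, and 5 of 18 library and group pairings had their best match with their own number. With the replicate number as a block, calls were 3215, 4933, 1142 and 596, and the call of Rps19 against ES10 was the only one lost among named genes. Limma-voom on the recovered reads gave 3527, 5348, 1582 and 984. At 14004929 to 16049853 reads per library, small differences that were not called are not shown to be absent.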

Other observations

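Genes of other functions also differed between P_ES10 and NC. Of 12 hypoxia targets 3 were higher and 6 lower (median -0.10), where 16.9% and 12.1% of all tested genes were. Adm, which encodes the vasodilator adrenomedullin, had 25.1, 25.2 and 26.5 FPKM in P_ES10, against 5.44, 5.25 and 4.63 in P, 27.1, 28.5 and 31.4 in ES10 and 12.3, 11.7 and 12.3 in NC (1.02 ± 0.06, limma, adjusted p = 8.88e-07), with P_ES10 and ES10 above NC and P below it. Hif1a rose by 0.33 ± 0.05, while Pdk1, a kinase that inhibits pyruvate dehydrogenase, and Mxi1, a MYC antagonist, fell by 0.51 and 0.55. Of 15 glycolysis genes 4 were higher and 1 lower (median 0.02), a split that turned to 3 and 6 after quantile normalization (median -0.08) and to 2 and 5 after scaling to nuclear reads (median -0.05). Hk2 and Pfkm rose by 0.27 ± 0.03 and 0.42 ± 0.06, and the liver-type phosphofructokinase Pfkl fell by 0.51. Gapdh rose by 0.16 ± 0.04, a call lost after scaling to nuclear reads (adjusted p = 0.165).

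Of 23 autophagy and lysosome genes 12 were higher and 2 lower (median 0.17), and 8 were higher and 4 lower after scaling to nuclear reads. Gabarapl1, an autophagosome protein, had 47.8, 47.4 and 49.7 FPKM in P_ES10, against 24.8, 24.3 and 25.1 in P, 56.1, 56.4 and 57.4 in ES10 and 40.4, 37.6 and 39.8 in NC (0.29 ± 0.03, adjusted p = 8.12e-05), with ES10 above P_ES10 and P below NC. The lysosomal protease Ctsd rose by 0.27 ± 0.04 (adjusted p = 1.92e-04).

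The remaining lists held few or divided calls, where 16.9% of all tested genes were higher and 12.1% lower. Of 14 TGF-beta and BMP targets 5 were higher and 5 lower, of 21 genes of the TCA cycle and fatty acid oxidation 3 were higher and 3 lower, of 14 iron and heme genes 1 was higher and 3 lower, of 10 mitochondrial stress response genes 1 was higher and 3 lower, and of 9 matrix proteases and inhibitors 2 were higher and 0 lower. The proteases and inhibitors had 1 higher and 3 lower after quantile normalization and 1 higher and 4 lower after scaling to nuclear reads. The TCA cycle and fatty acid oxidation list had 1 higher and 3 lower after quantile normalization and 0 higher and 4 lower after scaling to nuclear reads.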
